A study of Mus musculus with 16 samples.

Results

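Genes of DNA replication, mitosis and chromosome segregation were followed in the duodenal epithelium of mice that lacked the receptor Ephb4 in the intestinal epithelium. Members were taken by name from a deposited table of 2438 genes, of which 2247 were protein coding. A protein-coding gene was a member if it was Mki67, Top2a, Pcna, Tyms, Tk1, Birc5, Plk1 or Cdk1, or if its symbol began with Mcm, Kif, Cenp, Ncap, Aurk, Bub1, Rrm, Ccna, Ccnb, Ccne, Cdc or Smc. This gave 43 of the 2438 genes. They were sorted by known function into 12 replication genes, 24 mitosis genes and 7 genes said here to share only the symbol. The last set holds effectors and kinases of the small GTPase Cdc42, the kinesins Kif1c and Kifc3, and Mcm3ap, a protein of messenger RNA export. Mcm3ap is named for its association with Mcm3, so its place outside the replication class is a choice. It was lower in KO.

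The samples were 16 RNA sequencing libraries, 9 from mice with loxP-flanked Ephb4 alleles (flox) and 7 from mice without Ephb4 in intestinal epithelial cells (KO). All mice were 8 weeks old when a high fat diet began and ate it for 19 weeks, so no group on ordinary food was compared. The labels name duodenal epithelium, whereas the design text speaks of proximal small intestine tissue. The Cre line that removed Ephb4, a tyrosine kinase receptor for ephrin-B2, is not named in the labels or the design text.

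Cells copy their DNA in S phase and divide it in M phase. The origin kinase Cdc7 and the Mcm helicase start replication forks, and ribonucleotide reductase supplies the deoxynucleotides. Cohesin and condensin then hold and compact the chromosomes, kinetochores attach them to the spindle, and kinesins and Aurora kinases move and part them. In the small intestine dividing cells of the epithelium sit in the crypts, while the enterocytes of the villus no longer divide. Lymphocytes of the mucosa can divide too.

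Many cell cycle promoters carry 3 short motifs. E2F factors bind E2F sites at S phase genes, the DREAM and B-Myb complexes bind the cell cycle homology region (CHR), and NF-Y binds CCAAT boxes at mitotic genes. Stretches of promoters are shown for members listed as higher in KO and for Cenpb, listed as lower, so that the motifs can be seen in their context. Each is written 5′ to 3′ on the strand of the gene and ends at the base before the RefSeq start, in build GRCm38.p6. Capitals mark matches to the motifs. CHR was searched as the letters TTTGAA and, in its second form, as the letters TTCGAA, and a match to the first on the opposite strand reads TTCAAA here. A CCAAT box on the opposite strand reads ATTGG.
Mcm2, chr6:88898781-88898960, minus strand: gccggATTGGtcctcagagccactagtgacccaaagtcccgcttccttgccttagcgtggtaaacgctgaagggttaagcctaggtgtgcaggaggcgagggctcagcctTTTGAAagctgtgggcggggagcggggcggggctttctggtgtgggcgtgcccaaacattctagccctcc
Mcm3, chr1:20820313-20820432, minus strand: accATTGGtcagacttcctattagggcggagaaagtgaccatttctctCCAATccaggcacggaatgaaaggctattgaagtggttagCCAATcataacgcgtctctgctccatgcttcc
Rrm1, chr7:102441600-102441694, plus strand: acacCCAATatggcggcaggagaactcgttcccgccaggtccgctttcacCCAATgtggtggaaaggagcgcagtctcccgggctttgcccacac
Mki67, chr7:135716380-135716569, minus strand: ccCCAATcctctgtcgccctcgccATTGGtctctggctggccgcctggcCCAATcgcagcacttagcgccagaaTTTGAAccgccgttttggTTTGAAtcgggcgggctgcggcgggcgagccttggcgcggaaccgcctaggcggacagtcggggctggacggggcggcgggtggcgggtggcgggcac
Top2a, chr11:99024190-99024419, minus strand: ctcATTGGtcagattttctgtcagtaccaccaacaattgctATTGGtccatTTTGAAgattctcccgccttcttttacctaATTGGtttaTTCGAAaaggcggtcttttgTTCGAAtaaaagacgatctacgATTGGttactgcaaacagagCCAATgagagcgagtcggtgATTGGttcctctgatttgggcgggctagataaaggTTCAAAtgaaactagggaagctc
Kif11, chr19:37376332-37376381, plus strand: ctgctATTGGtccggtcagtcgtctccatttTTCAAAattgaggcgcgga
Kif18b, chr11:102925125-102925184, minus strand: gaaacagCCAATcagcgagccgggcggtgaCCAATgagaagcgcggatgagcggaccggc
Cenpb, chr2:131180068-131180212, minus strand: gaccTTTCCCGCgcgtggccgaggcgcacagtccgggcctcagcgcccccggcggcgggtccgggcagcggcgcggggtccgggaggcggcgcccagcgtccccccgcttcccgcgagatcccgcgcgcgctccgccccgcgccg
In these stretches Top2a held 4 CHR and 6 CCAAT matches, Mki67 held 2 and 3, and Kif11 held 1 of each within 50 bases of its start. Cenpb showed neither, and its only match was the E2F letters TTTCCCGC.

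Windows of 300 bases, 250 before to 50 after the start, were searched on both strands for all RefSeq genes in the table, and matches could overlap. The E2F letters were TTTGGCGC, TTTCCCGC, TTTGCCGC and TTTCGCGC. Of 43 members 36 matched the table, with 41 windows. CHR letters stood in 6 of 12 replication windows (50%) and in 12 of 22 windows of mitosis members listed as higher (54.5%), beside 19.2% of all 32851 windows. CCAAT stood in 8 of 12 (66.7%) and 15 of 22 windows (68.2%), beside 37.4% of all. Both motifs shared 1 window in 3 of 12 (25.0%) and 9 of 22 windows (40.9%), beside 7.52% of all. E2F letters stood in 3 of 12 (25.0%) and 4 of 22 windows (18.2%), beside 2.26% of all. Over the 21263 windows of protein-coding genes, as the members are, CHR stood in 17.6% and CCAAT in 38.2%. Both shared 7.11% of these windows, and E2F letters stood in 2.85%. Among the 7 genes that share only the symbol, 6 windows were found, with CHR in 2, CCAAT in 1 and E2F letters in none. These are letter matches and no binding was measured.

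The values are read counts divided by a size factor for each library, called normalised counts here. Libraries held 3592468 to 5316273 reads in the listed genes, and total depth is unknown because reads of other genes were not used here. Ephb4 was 5.76-fold lower in KO, at 36.6 ± 21.7 (SD, n = 7) against 210.5 ± 94.4 normalised counts (SD, n = 9), without overlap (two-sided exact permutation p = 8.74e-05, the smallest that 11440 splits allow). Enterocyte markers were abundant in every library, with 7 of 15 listed, all lower in KO, and a summed level of 379069 to 822177. Of the 16488 genes that the authors adjusted over 7.81% were listed as lower. At means of at least 1000 normalised counts 712 listed genes were lower and 56 higher. Each gene of the table had an adjusted p of at most 0.0497 in the authors' deposited table, so the members had been selected on the same 16 libraries and a test of KO against flox adds no separate support.

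Replication and mitosis genes were listed almost only as higher in KO. Of 28 annotated mouse symbols in the replication class 12 were listed, all higher, and of 74 in the mitosis class 23 were listed as higher and 1, Cenpb, as lower. Together 35 of 102 symbols were listed as higher (34.3%), beside 6.97% of the 16488 genes that the authors adjusted over. Of the 55 symbols that share only the name 7 were listed (12.7%), all lower, beside 7.81%. Over all 157 symbols of the rule, without the split, 35 were listed as higher (22.3%) and 8 as lower (5.10%). The classes were set with earlier results of these data known, so the direction within each class is not independent of the values. In the authors' deposited table the median log2 fold change was 0.78 for replication genes, 0.92 for mitosis genes and -0.35 for the 7 others. Over all listed genes it was -0.23, and 0.75 over those listed as higher. In bulk RNA more dividing cells and more RNA per cell cannot be told apart.

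The remaining 114 of 157 annotated symbols were not in the table. They include Pcna, Tyms, Tk1, Plk1, Cdk1, Mcm5, Mcm6, Cdc20, Ccnb2, Bub1b, Smc1a, Ncapd2, Ncapd3 and Ncaph2. Nothing is known here of their levels, only that they were not among the listed genes.

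limma, a linear model with shared variance, was fitted to log2(normalised count + 1) over the 2339 genes of the table whose mean reached 10, and all 43 members passed that filter. Benjamini-Hochberg adjustment ran over 16488 genes, giving those outside the table a p of 1. Below, genes are said to rise or fall at an adjusted p under 0.05 in this fit. In the fit 7 of 12 replication genes rose, 15 of 24 mitosis genes rose and 1 fell, and 5 of the 7 symbol-only members fell. With TMM scaling in place of the authors' size factors 8 replication and 18 mitosis genes rose and 2 members fell, Cenpb and Kif1c, while 692 of all genes fitted rose and 239 fell. With the authors' size factors 449 of the 2339 genes fitted rose and 820 fell, the like comparison for members, which were all listed. Over all 16488 genes, most of them outside the table, the shares were 7.70% in either direction, 2.72% rising and 4.97% falling. On reads recovered from the table edgeR called 7 replication, 12 mitosis and 5 symbol-only members, among 1315 of the 2339 genes fitted. Over all 16488 genes that was 7.98% (3.00% rising, 4.98% falling). DESeq2, close to the authors' own selection, called 10, 22 and 7 among 2112 of the 2339, or 12.8% of all 16488 (5.29% and 7.52%). The groups of 4 of 43 members did not overlap, namely Cenpk, Cenpb, Kif1c and Mcm3ap, beside 7.26% of all listed genes. Median differences on the log2 scale were 0.79, 0.99 and -0.35 for the replication, mitosis and symbol-only sets, beside -0.25 over all genes fitted.

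**Figure D1:**
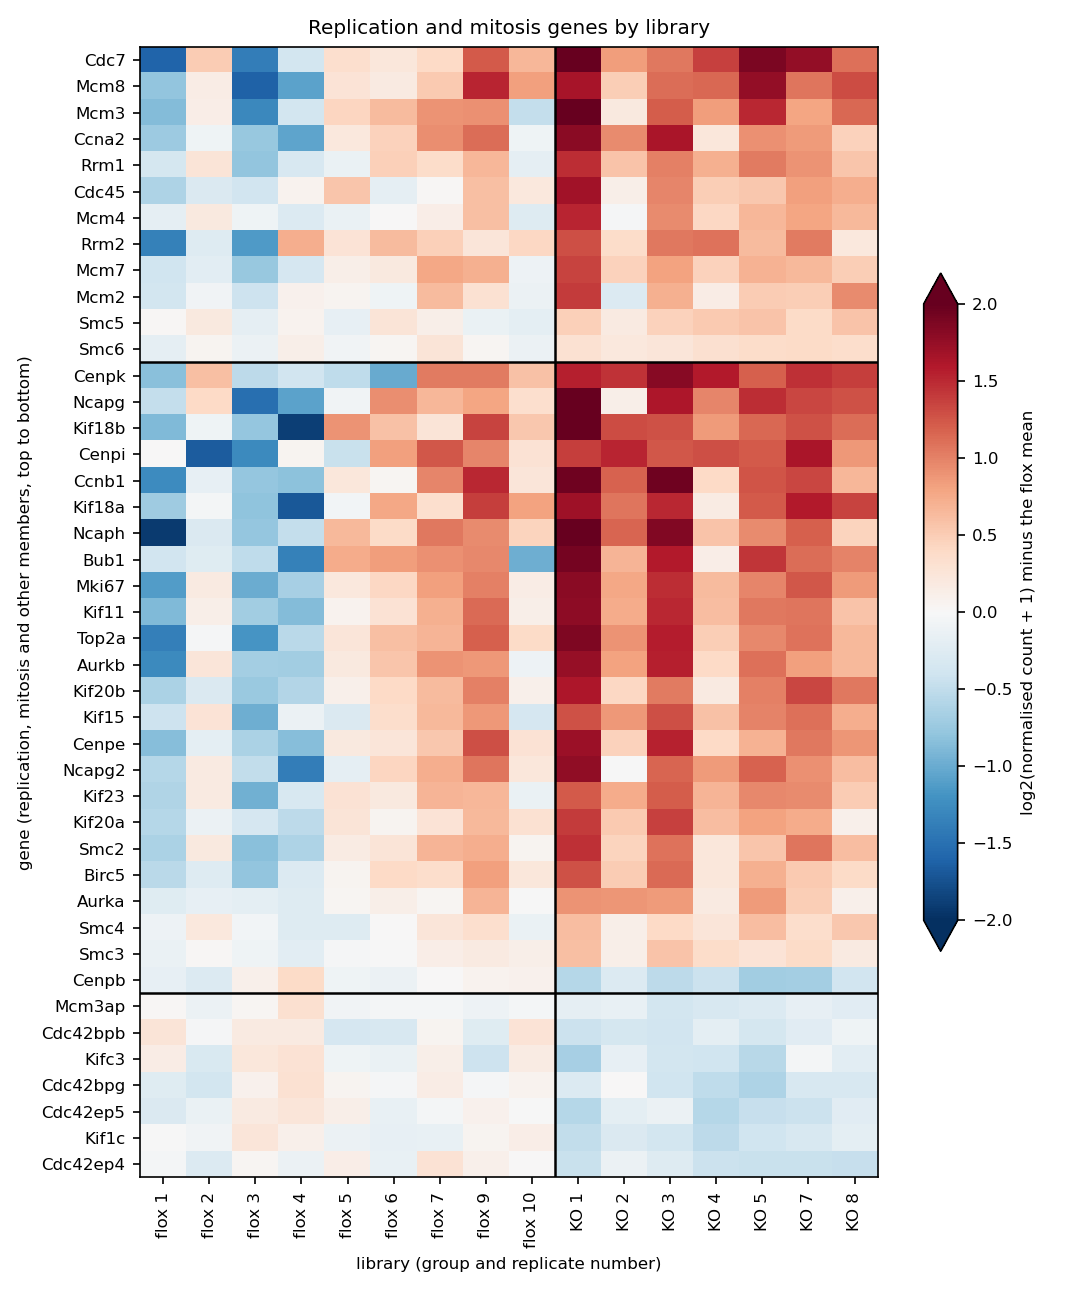
Level of each of the 43 members in the 16 libraries, as log2(normalised count + 1) minus the mean of the 9 flox libraries (colour), with genes grouped by class (vertical) and libraries by group (horizontal). Replication and mitosis genes are mostly higher in KO replicate 1 and flox replicate 9 than in other libraries of their group.

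The kinase that fires origins had the largest fold change of the replication genes. Cdc7 (ENSMUSG00000029283, chr5:106964322-106984432, GRCm38 here and below) ran from 3.31 to 29.8 normalised counts in flox (median 15.5) and from 22.4 to 51.4 in KO (median 32.8). All 7 KO libraries exceeded the flox median, 4 exceeded every flox library, and the groups overlapped. The means were 14.4 ± 8.20 (SD, n = 9) and 35.9 ± 11.5 (SD, n = 7), 2.49-fold higher in KO, and the log2 difference of 1.43 ± 0.38 (SE) had an adjusted p of 0.0301 in limma. Cdc45, which joins the Mcm ring to form the active helicase, was 1.75-fold higher (adjusted p 0.0522 in limma).

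Of the 6 subunits of the Mcm helicase ring 4 were listed, with folds of 1.54 to 2.06. Mcm3 (ENSMUSG00000041859, chr1:20802968-20820312) ran from 28.4 to 134 in flox (median 78.0) and from 81.2 to 302 in KO (median 159). KO replicate 1 was highest, 4 KO libraries exceeded every flox library, and 5 flox libraries lay below every KO library. Mcm3 rose 2.06-fold, by 1.11 ± 0.32 (SE) on the log2 scale (adjusted p 0.0443 in limma). Mcm7 (ENSMUSG00000029730, chr5:138164583-138172422) ran from 91.2 to 267 in flox (median 145.2) and from 214 to 399 in KO (median 243), with 2 KO libraries above every flox library. It rose 1.58-fold, by 0.70 ± 0.20 (SE) on the log2 scale (adjusted p 0.0396 in limma). Mcm4 rose 1.69-fold (adjusted p 0.0245 in limma), and Mcm2 was 1.54-fold higher without passing (adjusted p 0.0876 in limma).

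Mcm8 (ENSMUSG00000027353, chr2:132816141-132844197), a relative of the ring subunits that acts with Mcm9 in recombination repair, was scarce. It ran from 2.03 to 25.9 in flox (median 9.55) and from 12.1 to 30.5 in KO (median 19.7). The groups overlapped, with 2 KO libraries above every flox library, and the log2 difference of 1.22 ± 0.40 (SE) did not pass (adjusted p 0.0686 in limma).

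Both listed subunits of ribonucleotide reductase were higher in KO. Rrm2 (ENSMUSG00000020649, chr12:24708241-24714146), the small subunit made mainly in S phase, ran from 40.8 to 175 in flox (median 129) and from 124 to 261 in KO (median 219). Of the KO libraries 6 exceeded the flox median and 4 exceeded every flox library. Its difference of 0.81 ± 0.29 (SE) on the log2 scale did not pass (adjusted p 0.0899 in limma), with means of 118 ± 48.5 (SD, n = 9) and 193 ± 51.5 (SD, n = 7). Rrm1, the large subunit, rose 1.82-fold (adjusted p 0.0132 in limma).

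Cyclin A2, which drives S phase and entry into mitosis, had a wide spread. Ccna2 (ENSMUSG00000027715, chr3:36564865-36572150) ran from 55.8 to 255 in flox (median 110) and from 137 to 410 in KO (median 223). All KO libraries exceeded the flox median but only 2 exceeded flox replicate 9, the highest flox library. Its difference of 0.98 ± 0.31 (SE) on the log2 scale missed the threshold (adjusted p 0.0609 in limma). Per kb of gene length, Rrm2 (42.5 in flox, 69.8 in KO) and Mcm7 (37.1 and 58.6) were among the most abundant replication members by mean level, while Mcm8 was low (2.77 and 5.77).

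Mki67 (ENSMUSG00000031004, chr7:135689784-135716361), the Ki-67 protein that coats mitotic chromosomes and marks cycling cells, rose 2.00-fold. It ran from 164 to 719 normalised counts in flox (median 405) and from 557 to 1251 in KO (median 706). All KO libraries exceeded the flox median, 7 flox libraries lay below every KO library, and flox replicate 9 was the highest flox library. The means were 402 ± 193 (SD, n = 9) and 803 ± 249 (SD, n = 7), and the log2 difference of 1.11 ± 0.29 (SE) had an adjusted p of 0.0327 in limma.

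Top2a (ENSMUSG00000020914, chr11:98992943-99024189), the topoisomerase that untangles sister chromatids, ran from 102 to 601 in flox (median 311) and from 370 to 959 in KO (median 512). Its groups overlapped, with 2 KO libraries above every flox library. The difference of 1.08 ± 0.34 (SE) on the log2 scale was about as large as that of Mki67 but did not pass (adjusted p 0.0609 in limma). Birc5 (ENSMUSG00000017716, chr11:117849251-117855743), survivin of the chromosomal passenger complex, ran from 95.2 to 293 in flox (median 171) and from 193 to 400 in KO (median 238). Its difference was 0.68 ± 0.21 (SE) on the log2 scale, and it did not pass (adjusted p 0.0542 in limma).

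**Figure D2:**
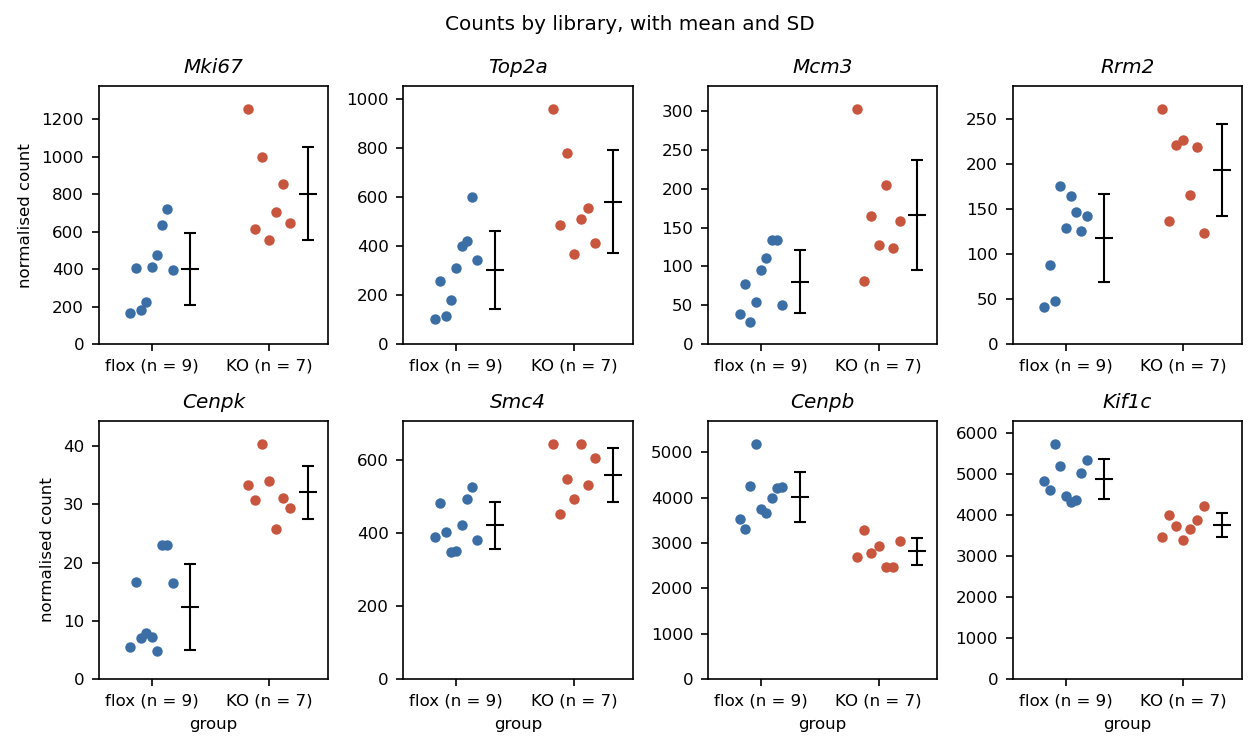
Normalised counts (vertical, linear axes from 0) of selected members in each of 9 flox and 7 KO libraries (points), with a bar at each group mean and error bars of 1 SD. KO libraries of Cenpk lie above every flox library and those of Cenpb and Kif1c below, while the groups of Mki67 and Mcm3 overlap.

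Other kinases and the cyclin of mitosis were also listed as higher. Aurka, the spindle pole kinase, rose 1.54-fold (adjusted p 0.0314 in limma), and Aurkb, the passenger complex kinase, rose 1.91-fold (adjusted p 0.0480 in limma). Ccnb1, the cyclin of mitotic entry, rose 2.17-fold (adjusted p 0.0388 in limma). Bub1, a kinase of the spindle checkpoint, was 2.03-fold higher and did not pass (adjusted p 0.0614 in limma).

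At the centromere 3 members were higher and 1 was lower. Cenpk (ENSMUSG00000021714, chr13:104228611-104252392), of the inner kinetochore, ran from 4.78 to 23.04 in flox (median 7.97) and from 25.7 to 40.3 in KO (median 31.0). No flox library reached the lowest KO library, although these are low counts. Cenpk rose 2.58-fold, by 1.49 ± 0.33 (SE) on the log2 scale (adjusted p 0.0145 in limma). Cenpi, of the same complex, rose 2.19-fold (adjusted p 0.0460 in limma), and the kinetochore motor Cenpe rose 1.85-fold (adjusted p 0.0491 in limma).

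Cenpb (ENSMUSG00000068267, chr2:131175182-131180067), which binds a short box in centromeric repeats, went the other way. It ran from 3308 to 5176 in flox (median 4003) and from 2467 to 3291 in KO (median 2778), and the groups did not overlap. Cenpb fell 1.43-fold, by 0.51 ± 0.09 (SE) on the log2 scale, and its adjusted p in limma, 0.00579, was the lowest of all 43 members. It was also the most abundant of the mitosis members per kb, at 822 in flox and 576 in KO, against 81.2 and 108 for Smc4.

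Of 15 annotated kinesins of the spindle and midzone 7 were listed, all higher, and 8, among them Kif2c, Kif4 and Kifc1, were not. The 7 had folds of 1.77 to 2.21, and 5 rose. Kif18b (ENSMUSG00000051378, chr11:102905529-102925124), which trims microtubule ends, ran from 2.28 to 29.8 in flox (median 13.4) and from 20.8 to 54.3 in KO (median 28.2). Only KO replicate 1 exceeded every flox library, and the difference of 1.31 ± 0.40 (SE) on the log2 scale did not pass (adjusted p 0.0506 in limma). Kif11, the motor that pushes spindle poles apart, rose 1.97-fold (adjusted p 0.0302 in limma). Kif15 rose 1.88-fold, Kif23 1.78-fold, Kif20a 1.77-fold and Kif20b 1.89-fold, while Kif18a was 2.14-fold higher without passing (adjusted p 0.0637 in limma). Kif23 and Kif20a act at the midzone and in cytokinesis.

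Condensin packs mitotic chromosomes, and its non-SMC subunits Ncapg, Ncaph and Ncapg2 had folds of 1.83 to 2.29. Ncapg (ENSMUSG00000015880, chr5:45669919-45700546) ran from 8.11 to 48.7 in flox (median 31.9) and from 27.1 to 108 in KO (median 64.7). Of the KO libraries 6 exceeded every flox library and KO replicate 2 was lowest. Ncapg rose 2.29-fold, by 1.27 ± 0.36 (SE) on the log2 scale (adjusted p 0.0373 in limma). Ncaph and Ncapg2 were 2.12-fold and 1.83-fold higher and did not pass (adjusted p 0.0618 and 0.0685 in limma).

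The SMC proteins are the ring ATPases of these complexes. The 5 listed members had folds of 1.24 to 1.68 (median 1.33), and 4 rose. Smc4 (ENSMUSG00000034349, chr3:69004738-69034623) of condensin ran from 350 to 528 in flox (median 403) and from 453 to 644 in KO (median 550). Of the KO libraries 5 exceeded every flox library, and Smc4 rose by 0.41 ± 0.10 (SE) on the log2 scale (adjusted p 0.0228 in limma). Smc3 (ENSMUSG00000024974, chr19:53600398-53645833) of cohesin ran from 286 to 377 in flox (median 331) and from 362 to 505 in KO (median 429). In 6 KO libraries it exceeded every flox library, and it rose by 0.36 ± 0.08 (SE) on the log2 scale (adjusted p 0.0190 in limma).

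Smc5 and Smc6, partners in a ring that serves replication and repair, rose 1.37-fold and 1.24-fold (adjusted p 0.0115 and 0.0150 in limma). Smc2, the other condensin ATPase, was 1.68-fold higher and did not pass (adjusted p 0.0520 in limma). The median coefficient of variation (SD as a percent of the mean) was 12.3% in flox and 12.7% in KO for them, beside 48.7% and 33.6% for the 30 other members listed as higher. Smc2 had higher values than the other SMC members, 37.6% in flox and 31.6% in KO. No test of SMC members against the others was made.

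**Figure D3:**
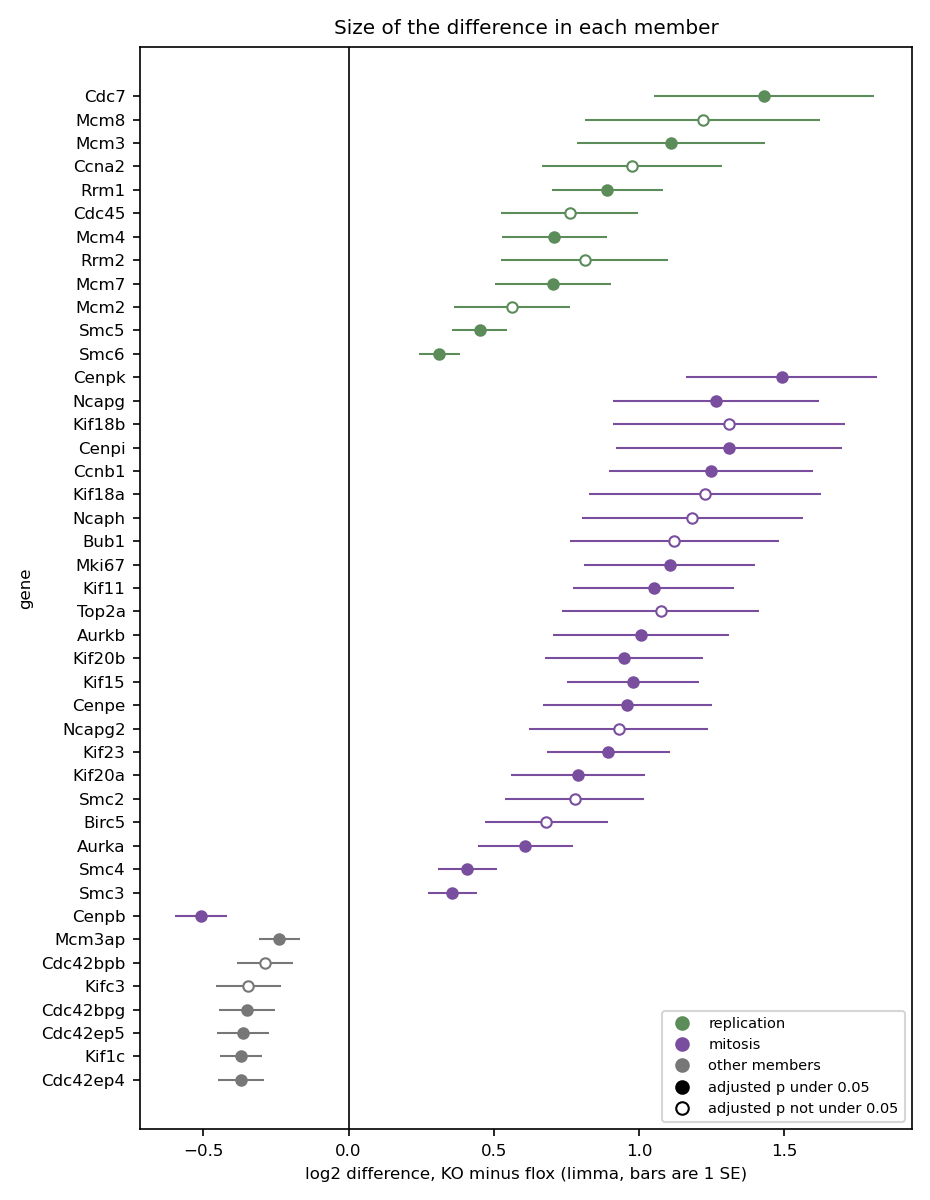
Difference of KO minus flox on the log2(normalised count + 1) scale for each of the 43 members (points, horizontal axis), with bars of 1 SE from limma, filled points for an adjusted p under 0.05 and genes grouped by class. Replication and mitosis members other than Cenpb lie to the right of 0, Smc3, Smc4, Smc5 and Smc6 nearest to it, and the members that share only the symbol lie to the left.

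The 7 members that share only the symbol were 1.18-fold to 1.30-fold lower. Kif1c (ENSMUSG00000020821, chr11:70700548-70731964), a transport kinesin of interphase cells, ran from 4318 to 5720 in flox (median 4831) and from 3379 to 4225 in KO (median 3741). The groups did not overlap, and Kif1c fell 1.29-fold, by 0.37 ± 0.07 (SE) on the log2 scale (adjusted p 0.0101 in limma). Cdc42ep4 (ENSMUSG00000041598, chr11:113726850-113751881) ran from 876 to 1290 in flox (median 1065) and from 770 to 976 in KO (median 779), and fell by 0.37 ± 0.08 (SE) on the log2 scale (adjusted p 0.0136 in limma). It is an effector of Cdc42, a GTPase of cell shape and polarity.

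Another Cdc42 effector, Cdc42ep5 (ENSMUSG00000063838, chr7:4151260-4164860), ran from 1275 to 1856 in flox (median 1563) and from 1055 to 1449 in KO (median 1158). It overlapped between groups and fell by 0.36 ± 0.09 (SE) on the log2 scale (adjusted p 0.0221 in limma). Cdc42bpb (ENSMUSG00000021279, chr12:111292976-111377718), a kinase that Cdc42 binds, ran from 2047 to 3118 in flox (median 2681) and from 1928 to 2448 in KO (median 2039). Its difference of -0.29 ± 0.10 (SE) on the log2 scale did not pass (adjusted p 0.0759 in limma), and it turned to 0.04 after quantile normalisation. The related kinase Cdc42bpg and the export protein Mcm3ap fell (adjusted p 0.0372 and 0.0441 in limma), while Kifc3 was 1.27-fold lower without passing (adjusted p 0.0657 in limma).

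Abundance differed between the sets as it did over the whole table. The 35 members listed as higher had means of 15.2 to 578 normalised counts over all libraries. Of the 1203 listed genes in that range 883 were higher (73.4%), and their median log2 fold change, again from the authors' deposited table, was 0.71 against 0.91 for the 35 members. The order differed by level. At means under 50 the median was 1.21 for all genes listed as higher and 1.11 for the 10 members, and at 50 to 200 it was 0.65 and, for 17 members, 0.89. At 200 to 1000 it was 0.38 and, for the 8 members listed as higher, 0.65, while 3 further members there were lower. At means of at least 1000 normalised counts, 56 listed genes were higher and 712 lower, and all 5 members there were lower. Whether members differ from other genes of like abundance was not tested.

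The same few libraries were highest for most members. KO replicate 1 was the highest KO library for 28 of the 35 members listed as higher, and flox replicate 9 was the highest flox library for 25. In 31 of the 35 all 7 KO libraries exceeded the flox median, which follows partly from their selection as higher on these libraries. The same was not counted over all genes listed as higher. The mean of the 23 higher mitosis members on the log2 scale, set to 0 at the flox mean, ran from -0.72 to 0.93 in flox and from 0.55 to 1.56 in KO, so the groups overlapped. For the replication class it ran from -0.74 to 0.65 in flox and from 0.34 to 1.42 in KO. The symbol-only set ran from -0.18 to 0.19 in flox and from -0.44 to -0.18 in KO.

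Relations within each genotype, which the selection of genes did not use, were computed for 3 pairs in 2 groups on the log2 scale, with exact two-sided permutation of the pairings and Benjamini-Hochberg adjustment over the 6. In KO, Mki67 and Mcm4 had r = 0.90 (exact permutation p = 0.00437, adjusted 0.0131) and rho = 0.96 (exact permutation p = 0.00278, adjusted 0.00923, n = 7). In flox, r was 0.69 (exact permutation p = 0.0361, adjusted 0.0722) and rho 0.70 (exact permutation p = 0.0433, adjusted 0.0865, n = 9). Without the 2 libraries farthest from the median of Mki67, r was 0.66 in KO (exact permutation p = 0.25, adjusted 0.5) and 0.79 in flox (exact permutation p = 0.0379, adjusted 0.120). With only 5 KO libraries left, rho was 0.90 there (exact permutation p = 0.0833, adjusted 0.167), so the order of the libraries stayed similar while neither p passed.

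For Mki67 and Aurka r was 0.78 in flox (exact permutation p = 0.00290, adjusted 0.0131, rho 0.88, exact permutation p = 0.00308, adjusted 0.00923). In KO it was 0.55 (exact permutation p = 0.202, adjusted 0.303, rho 0.54, exact permutation p = 0.236, adjusted 0.354). Without the 2 farthest libraries r was 0.80 in flox (adjusted exact permutation p = 0.120) and 0.24 in KO (adjusted exact permutation p = 0.742), so the adjusted p in flox no longer passed. Libraries share their size factor and their preparation in each of these relations.

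**Figure D4:**
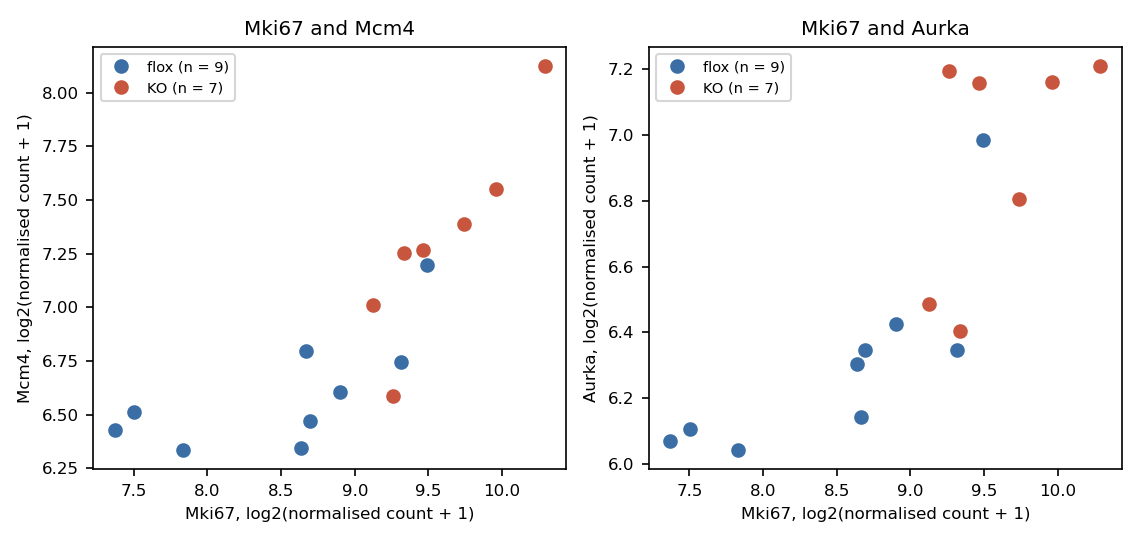
Mki67 (horizontal, log2(normalised count + 1)) against Mcm4 (left) and Aurka (right, both vertical on the same scale), each point 1 of 9 flox or 7 KO libraries. Within flox and within KO, libraries high in Mki67 tend to be high in Mcm4, and KO replicate 1 is highest for Mki67, Mcm4 and Aurka. For Aurka it does not stand apart, at 147 normalised counts against 146 in KO replicate 2.

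Genes of the same processes outside the symbol rule were also listed only as higher. Over all 16488 genes 6.97% were listed as higher. Of the listed genes 90.5% were higher at means under 50 and 83.9% at 50 to 200. Of 51 further replication genes 17 were listed, all higher, and the authors' deposited table gave them a median of 0.80 on the log2 scale. The largest were Pole, the leading strand polymerase, at 1.13, the fork protection protein Tipin at 1.12, and Uhrf1, which guides maintenance methylation, at 1.11. Of 75 further mitosis genes 21 were listed, all higher, with a median of 0.99, led by the kinetochore protein Ndc80 (1.60), the checkpoint kinase Ttk (1.38) and the spindle protein Hmmr (1.26).

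Of 45 cell cycle control genes 9 were listed, 8 higher and 1 lower, beside 6.97% and 7.81% of all 16488 genes. The largest were Cdkn3 (1.03), Cks1b (0.96) and Mybl2 (0.86), the B-Myb factor of mitotic promoters. The lower gene was Cdkn1a, the inhibitor p21, at 4679 ± 715 normalised counts in flox (SD, n = 9) and 3619 ± 702 in KO (SD, n = 7), where the authors' deposited table has a log2 difference of -0.37, and it is named after its values were seen. These lists share libraries and selection with the members.

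Markers of other cell types were higher in KO too, and the values below do not separate their part in the members' levels from genotype. Of 90 markers of stroma, endothelium, lymphocytes, germinal centers, mast and other myeloid cells the table held 20, all higher in KO. Of all 16488 genes 6.97% were listed as higher. The summed level of the 20 markers ran from 527 to 1532 normalised counts in flox and from 768 to 3909 in KO. Germinal center B cells divide fast, and 4 of 9 of their markers were listed, Mybl1, S1pr2, Gcsam and Mef2b, with Gcsam at 0 in 1 library and Mef2b at 0 in 2. Of 14 intestinal stem cell markers only Cd44 was listed, as higher, and none of 12 Paneth cell markers was listed.

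The mean log2 level of the 20 markers ran from 3.91 to 5.53 in flox. In KO it was 4.55 in replicate 2 and 4.59 in replicate 3, within the flox range, and 6.00 to 7.04 in the other 5. The members were listed as higher on these same libraries, so counts of members above flox follow partly from that selection. No like count over all genes listed as higher was made. KO replicate 3 exceeded every flox library for 31 of the 35 members listed as higher, with a median fold of 2.06 over the flox mean. KO replicate 2 did so for 6 of 35, with a median fold of 1.38, and KO replicate 1, which had the highest marker level, for 35 of 35 with a median fold of 2.84. The other KO libraries, all above the flox range of marker level, exceeded every flox library for 10 (replicate 4), 12 (replicate 8), 18 (replicate 5) and 21 members (replicate 7), with median folds of 1.31, 1.44, 1.78 and 1.81. Within groups, Mki67 and the marker level had r = 0.24 in flox (exact permutation p = 0.526, adjusted 0.607, rho 0.30, exact permutation p = 0.437, adjusted 0.524) and r = 0.24 in KO (exact permutation p = 0.607, adjusted 0.607, rho 0.29, exact permutation p = 0.556, adjusted 0.556). Without the 2 farthest libraries r was -0.22 in flox and 0.24 in KO. For the other members and the class means no such relation was computed, so Mki67 does not stand in for them. The 20 markers were themselves listed as higher in KO on these libraries, so their level follows genotype in part by selection. A fit with that level therefore cannot separate other cells from genotype. With the marker level as a covariate 0 members passed limma, and 8 of all 2339 genes fitted did. At an unadjusted p under 0.05 stood 3 replication, 12 mitosis and 2 further members and 810 of the 2339 genes, and the 3 sets had medians of 0.50, 0.83 and -0.20 on the log2 scale.

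**Figure D5:**
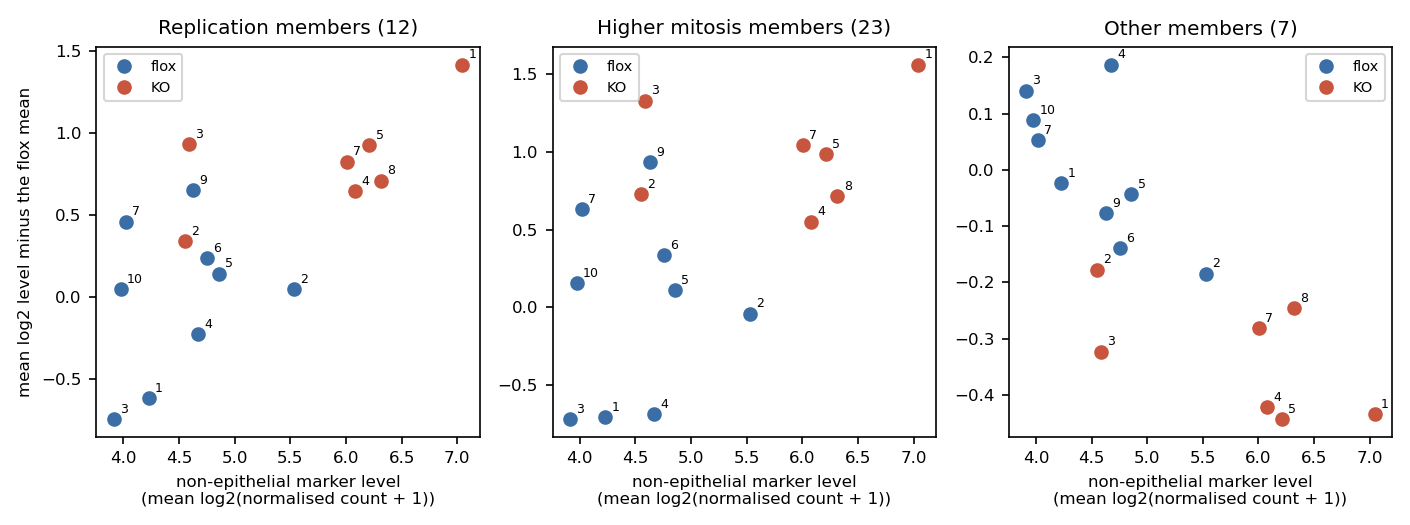
Mean level of the 12 replication, 23 higher mitosis and 7 symbol-only members (panels, vertical, log2 difference from the flox mean) against the mean log2 level of 20 non-epithelial markers (horizontal), each point 1 of 9 flox or 7 KO libraries with its replicate number. KO replicates 2 and 3 lie within the flox range of marker level, and KO replicate 1 is highest on both axes for replication and mitosis.

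Transcripts of pancreatic acinar cells stood in 5 flox libraries, replicates 4, 6, 7, 9 and 10. The summed level of the 24 listed acinar genes with a KO mean under 100, a limit that itself keeps the KO sum low, was 6396 to 138264 normalised counts there, 106 to 185 in the other 4 flox libraries and 113 to 1412 in KO. Over all 27 listed acinar genes the sum was 5653 to 163943 in flox and 4977 to 7947 in KO. Mean class levels were 0.23 in those 5 and -0.29 in the other 4 for replication, and 0.27 and -0.34 for mitosis. Without the 5 libraries the median differences were 1.08, 1.34 and -0.33 on the log2 scale, and 0 members passed limma over the 4 flox and 7 KO libraries left, with 12 of 12, 24 of 24 and 6 of 7 at an unadjusted p under 0.05. Of all 2339 genes fitted 11 passed there and 1703 had an unadjusted p under 0.05. What these transcripts have to do with the members' levels was not tested. The number of members that passed depended on single libraries too. It was 3 replication and 5 mitosis genes without KO replicate 1, and 10 and 24 without flox replicate 9. Over all genes fitted 1269 passed with every library, 645 without KO replicate 1 and 1180 without flox replicate 9.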

How the data were processed

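Poly-A RNA libraries from duodenal epithelium, 9 flox and 7 KO, were used. The submitters' processing notes name GRCm38 (mm10) and the tools DESeq2 1.20.0, featureCounts 1.5.0-p3 and HISAT2 2.0.5. Their settings, strand use included, were not given in the labels. The deposited signal columns are counts divided by a size factor (0.878 to 1.38). In each library 100% of values came out as whole reads within 0.0001. The log2 fold change, p-value and adjusted p-value of each gene are from the authors' deposited table. The table holds only genes that passed, so means, folds and scaling rest on a selected part of the transcriptome.

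limma 3.58.1 (R 4.3.3, trend and robust) was run as described and tested on simulated data. edgeR 4.0.16 and DESeq2 1.42.0 on recovered reads were alternatives, with other pseudocounts, filters, scalings, left-out libraries, a marker covariate and a replicate block. No pair of libraries was a duplicate. The labels do not say that each library is its own mouse, so p-values measure the spread between libraries. No batch was named.

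Values by library are given for the rule's single genes and, in each class, the 3 members with the largest absolute log2 fold change and the 3 most abundant per kb. Members, classes and lists were chosen with earlier results of these data known. Promoters are RefSeq's, build GRCm38.p6.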

Additional observations from a re-analysis of the deposited data

Results flagged for a closer look

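Of the 86 groups of 7 or 9 libraries tested, 7 held 1 library that stood apart from the rest by Dixon's test at the 95% level, where chance gives about 1 in 20. Flox replicate 9 stood apart for 3 members, with Aurka at 125.8 normalised counts (the next library at 85.0), Cenpe at 144.0 (86.1) and Mcm4 at 145.9 (110). KO replicate 1 stood apart for 3 members, with Kif18b at 54.3 (28.9), Cdc45 at 95.6 (58.4) and Mcm7 at 399 (272). Flox replicate 4 stood apart for Mcm3ap at 633 (519). Members share these libraries, so the 7 are not separate events.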

How the results depend on the processing

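Calls by limma were 7 replication, 16 mitosis and 5 further members, with medians of 0.79, 0.99 and -0.35 on the log2 scale, among 1269 of 2339 genes fitted. Quantile normalisation, which moved the median of all genes from -0.25 to 0.01 (TMM to -0.12), left 2, 3 and 0 among 355 genes, with a median of 0.46 for mitosis and -0.051 for the symbol-only set, and turned Cdc42bpb to 0.043. TMM left 1 further member (median -0.22) among 931 genes. The marker covariate, itself built from genes listed as higher in KO, left 0, 0 and 0 among 8 genes (median of the last -0.20). Without flox replicate 10, the library above the largest gap in all acinar transcripts, 7 mitosis and 3 further members passed among 646 genes. Chosen after seeing the data, leaving out 5 flox libraries gave 0, 0 and 0 among 11 genes, and without KO replicates 1 and 3 edgeR called 2, 1 and 2 among 374 genes and DESeq2 4, 6 and 3 among 1157. On all libraries edgeR called 7, 12 and 5 among 1315 genes and DESeq2 10, 22 and 7 among 2112, the latter close to the authors' own selection. In each of these settings the class medians kept their sign. The cause of these changes was not tested.

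Leaving out 1 library at a time gave 3 to 10 replication, 5 to 24 mitosis and 2 to 6 further members, with medians of 0.67 to 0.88, 0.89 to 1.12 and -0.38 to -0.31. The Ephb4 difference ran from -2.73 to -2.40. For mitosis the count moved by over 1.5 times without KO replicate 1 (5), 3 (7), 5 (5) or 7 (6), where 645, 1205, 622 and 518 of all genes passed, and without flox replicate 1 (8), 3 (6), 4 (6) or 10 (7), where 989, 615, 838 and 646 did. For replication it did so without KO replicate 1 (3), 5 (4) or 7 (3) and without flox replicate 3 (4) or 4 (4). Without the 2 libraries farthest from the median, r fell to 0.66 for Mki67 with Mcm4 in KO (adjusted exact permutation p = 0.5, rho 0.90 over 5 libraries), was 0.80 with Aurka in flox (0.120) and turned to -0.22 with the marker level in flox.

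The replicate block on 6 shared numbers left 0, 0 and 0 calls among 9 genes of the whole table, with medians of 0.99, 1.28 and -0.37 over 12 libraries. Correlations of the deviations of same-numbered libraries ran from -0.43 to 0.37, and 1 of 6 flox libraries matched its own number best. No pairing by number was thus seen in the listed genes, but 6 correlations cannot exclude it. Precision is limited most for scarce members such as Mcm8, Kif18a and Cenpi, and the depth over unlisted genes is unknown.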
